A study of Acyrthosiphon pisum with 15 samples.

Results

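Gene models with high RNA levels in asexual females of the pea aphid, Acyrthosiphon pisum, and low levels in its sexual females and males were described across 15 whole-body libraries. The lowest value among the 6 asexual female libraries was divided by the highest value among the 9 other libraries plus 1. The 150 gene models with the largest ratio were taken, out of 8980 that reached a normalised count of 100 in all 6 asexual female libraries and 20657 gene models in all. The members were thus chosen on the values of these libraries, and the gap between asexual females and the other morphs is described here without a test. Normalised counts are read counts divided by a size factor of each library, and they are not scaled for gene length, so levels are not ordered between genes.

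The libraries came from 5 adult morphs of the clones F1, I18 and BK11, a clone being an asexually kept line, with 30 aphids pooled in each library. Winged and wingless asexual females were kept at 16 h of light and 8 h of dark and 18 °C, and were 2 days old. Winged and wingless males, also 2 days old, and sexual females, 2 to 6 days old, were kept at 13 h of light, 11 h of dark and 15 °C. The labels list no mutation and no agent for any group. Reproductive mode, day length and temperature cannot be told apart between asexual females and the rest.

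Asexual female aphids reproduce by viviparous parthenogenesis: unfertilised eggs start to develop at once inside the ovary, and the mother carries embryos that may themselves already hold embryos. Sexual females are egg layers whose oocytes fill with yolk and are fertilised before they are laid, and males belong to the sexual generation. A whole-body library of an asexual female therefore holds RNA of mother and embryos together. More cells of a type and more RNA per cell cannot be told apart in such libraries. The file holds identifiers without gene names, and 3 members, ACYPI37407-RA, ACYPI001297-RA and ACYPI27259-RA, matched the RefSeq gene table (assembly pea_aphid_22Mar2018_4r6ur_v2), each as protein-coding and with no symbol beyond its identifier. Functions of the members are for that reason not given, and no sequences are shown.

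Recovered read totals ran from 28721904 to 75066116 per library. Together the 150 members held 2.34% ± 0.0727 (SD, n = 3 clones) of the normalised counts in winged and 3.32% ± 0.511 in wingless asexual females. The share of the same genes was 0.0450% ± 0.00589 in winged males, 0.0633% ± 0.0368 in wingless males and 0.0371% ± 0.0271 in sexual females. Of the summed counts of the members in asexual females, 63.3% came from 10 of them.

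**Figure D1:**
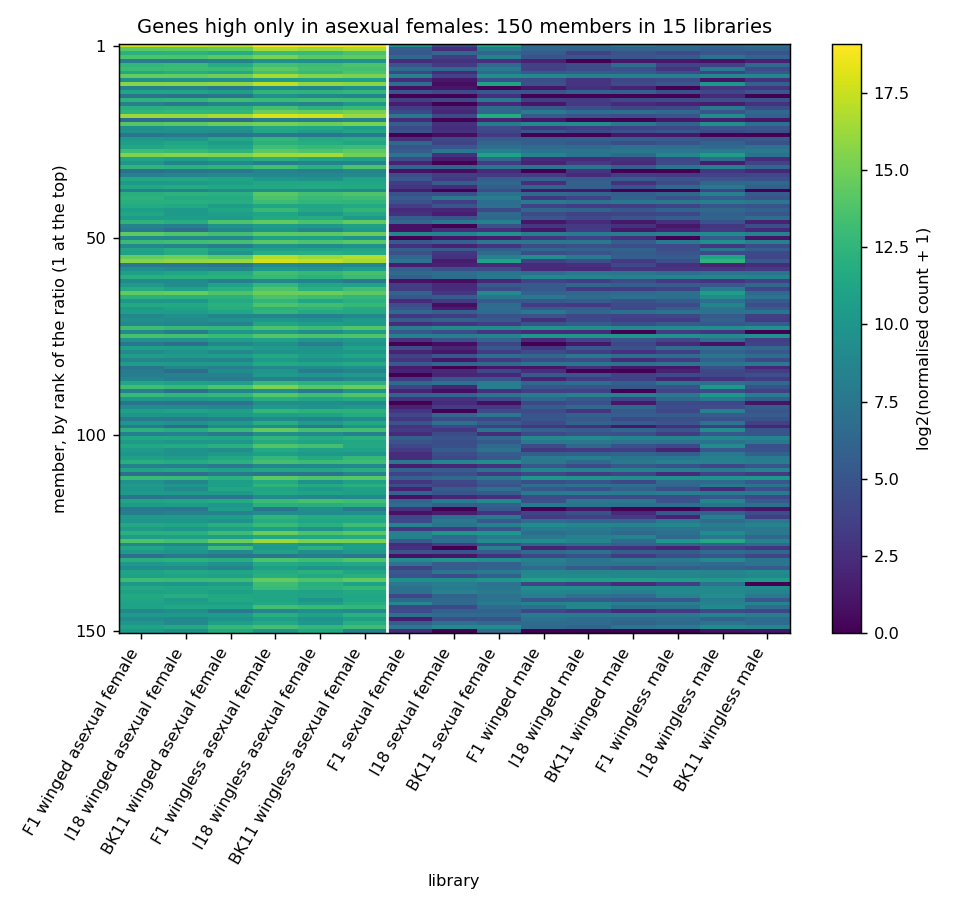
Heat map of log2(normalised count + 1) for the 150 members (rows, ordered by the ratio that chose them, highest at the top) in the 15 libraries (columns). The white line separates the 6 asexual female libraries, which the rule required to be high, from the 9 others, where the BK11 sexual female and I18 wingless male columns are brighter than their neighbours.

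The size of the gap varied widely among the members. The ratio ran from 3.36 to 75.4 with a median of 7.19, and it was at least 10 for 53 members and at least 30 for 10. The mean level over the asexual female libraries ran from 190.8 to 336680 normalised counts, with a median of 2452. In its highest library outside asexual females, a member stood at a median of 175.3 normalised counts, and for 13 members that library was still under 20. No member was at or under 3 reads in all 9 of those libraries, so every member had reads outside asexual females. At least one of the 9 libraries had 0 reads for 23 members, and a count of 0 allows up to 3 reads, or 1.92 to 4.08 normalised counts in these libraries.

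The member with the largest ratio was ACYPI007459-RA. Winged asexual females stood at normalised counts of 199952 in F1, 191097 in I18 and 150457 in BK11, and wingless ones at 555960, 499654 and 422957. Sexual females stood at 843.9, 19.9 and 1993, winged males at 92.3, 82.5 and 159.0, and wingless males at 102.5, 89.6 and 131.7, in the same order of clones. All asexual female values lay far above the rest, as the rule required, and the sexual females differed among clones by much more than the males did.

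ACYPI005591-RA had the second largest ratio. Winged asexual females had normalised counts of 18914 in F1, 19877 in I18 and 24371 in BK11, and wingless ones had 105781, 73484 and 103467. Sexual females had 48.7, 4.48 and 264.9, and no male library exceeded 79.5. Here too the wingless libraries were all above the winged ones, the I18 sexual female was the lowest library, and the BK11 sexual female was the highest outside asexual females.

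At the other end, ACYPI087268-RA held rank 150 with a ratio of 3.36. Its winged asexual females stood at normalised counts of 1165 in F1, 724.0 in I18 and 2947 in BK11, and its wingless ones at 885.8, 2594 and 336.1. Sexual females had 3.75, 0 and 98.9, and no male library exceeded 1.16. This member was near 0 in all males, and it was placed last by a low BK11 wingless asexual female and a high BK11 sexual female. The first gene model outside the limit was ACYPI009481-RA with a ratio of 3.36, from 983.4 in its lowest asexual female library and 291.5 in the I18 wingless male.

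The members found in the gene table lay within this range. ACYPI37407-RA, at rank 31, had normalised counts of 985.5 in F1, 384.5 in I18 and 524.5 in BK11 winged asexual females and of 287.0, 357.2 and 396.3 in the wingless ones, with no more than 18.2 in any other library. ACYPI001297-RA, at rank 90, lay between 6177 and 17358 in asexual females, between 62.8 and 168.6 in sexual females and between 190.8 and 313.9 in 5 male libraries, with the I18 wingless male at 1051. ACYPI27259-RA, at rank 117, lay between 2227 and 11706 in asexual females, and its highest values elsewhere were 514.2 for the BK11 sexual female and 402.8 for the I18 wingless male.

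Outside asexual females, 2 libraries stood above the others of their kind. Expressed as a percentage of the member's mean over asexual females, the median member stood at 4.45% in the I18 wingless male and between 1.34% and 2.06% in the 5 other male libraries. Among sexual females it stood at 2.31% in BK11, 0.735% in I18 and 0.574% in F1. The I18 wingless male was the highest of the 9 libraries for 51 members and the BK11 sexual female for 33. The I18 wingless male exceeded all other males for 75 members, by at least 5-fold (after adding 1 to each value) for 16. The BK11 sexual female exceeded both other sexual females for 118, by at least 5-fold for 22. For 7 members both 5-fold gaps applied. These counts were not made over all gene models, so they do not show whether the excess is particular to the members.

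ACYPI002725-RA shows both. The winged asexual females had 75160 in F1, 73971 in I18 and 104420 in BK11, and the wingless ones 251642, 212976 and 75514. Sexual females had 185.5 in F1, 18.6 in I18 and 3455 in BK11, and wingless males 29.8 in F1, 604.6 in I18 and 60.1 in BK11. Winged males lay between 23.1 and 38.5. The BK11 sexual female was thus the highest library outside asexual females, with the I18 wingless male next.

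These libraries bear on membership. Chosen without the I18 wingless male, the list shared 93 of its 150 members with the one described, and without all 5 libraries of clone I18 it shared 89. Without both the I18 wingless male and the BK11 sexual female it shared 95. Leaving out any other single library kept 137 to 150 members, the BK11 sexual female alone 147. Whether traces of asexual females or embryos contributed to these libraries was not tested.

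**Figure D2:**
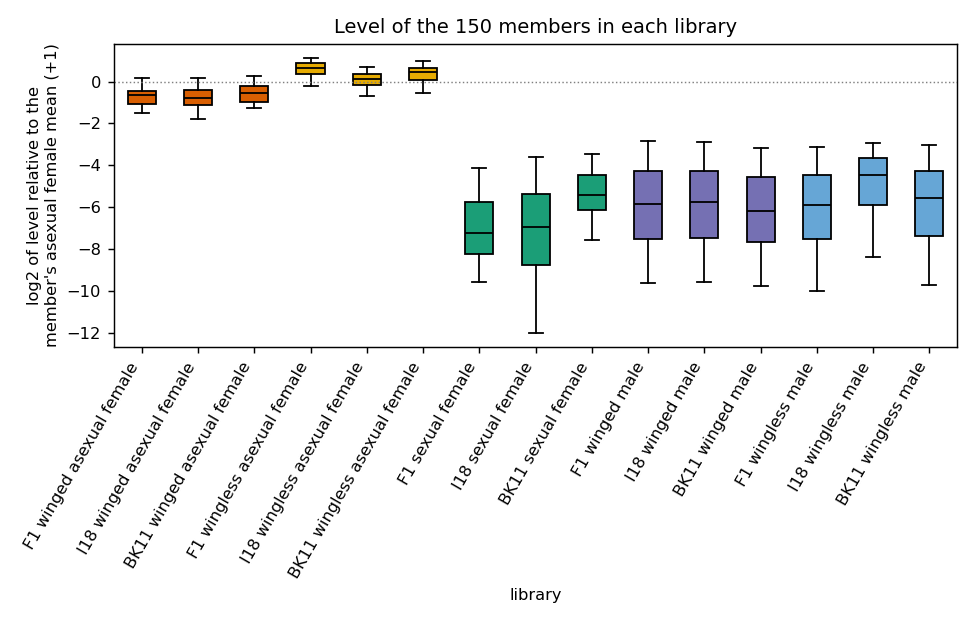
Level of the 150 members in each library, as log2 of the normalised count plus 1 relative to the member's mean over the 6 asexual female libraries plus 1. Boxes span the quartiles with the median as a line and whiskers span the 5th to 95th percentile, and the I18 wingless male and BK11 sexual female have the highest medians of their groups, at 4.45% and 2.31% of the asexual female mean.

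Within asexual females, the members were generally lower in the winged than in the wingless morph, a contrast the rule did not use. The median log2 difference, winged minus wingless, was −1.07 over the 150 members. It was 0 over all 20301 gene models tested and −0.22 over the 8980 that reached 100 in all asexual female libraries. Within clones the median was −1.35 in F1, −0.91 in I18 and −1.05 in BK11. The wingless mean was at least 2 times the winged mean for 82 members and at least 4 times for 6, and the winged mean was the higher one for 12. These counts of means were not made over all gene models, so they do not show whether they are particular to the members.

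The direction repeated across clones for most members. Winged females were below wingless ones in all 3 clones for 112 members (74.7%), against 28.6% of all gene models tested and 43.0% of those at 100 or more in all asexual female libraries. They were above in all 3 clones for 5 members, against 26.3% of all tested. Every winged library lay below every wingless one for 91 members (60.7%), against 16.4% of all gene models tested and 29.4% of those at 100 or more. Every winged library lay above every wingless one for 2 members, against 14.6% of all tested. With every library scaled to the same total, these counts were 43 members below, against 5.61% of all tested, and 10 above, against 32.1%. Since the rule asks for a high lowest value, it favours genes with a small spread over the asexual female libraries.

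Few of these differences passed the test across all genes. With limma on log2(value + 1) and Benjamini-Hochberg adjustment over 20301 gene models at a threshold of 0.05, 15 members were lower in winged females and none was higher, while 11.4% of all gene models were called, 6.82% as lower and 4.54% as higher. At an unadjusted limma p under 0.05, 49 members were lower and 0 higher, where 24.9% of all gene models passed in either direction. EdgeR and DESeq2 on the recovered reads called 11 and 37 lower and 0 higher, where 4.89% and 9.76% of all gene models were lower, 5.83% and 8.24% higher and 10.7% and 18.0% either. The log2 differences of the 15 ran from −1.15 to −2.07, and all were in the same direction in all 3 clones. Among gene models at 100 or more in all asexual female libraries, limma called 13.8% lower.

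The number of calls differed with the libraries that were fitted, and the cause was not tested. The 5 morphs shared one estimate, and the median standard deviation of the members on the log2 scale was 0.31 in winged and 0.41 in wingless asexual females, but 0.50 in winged males, 0.69 in wingless males and 1.14 in sexual females. Over all gene models tested that median was 0.54, 0.49, 0.42, 0.60 and 0.63 in the same order. When only the 6 asexual female libraries were fitted, 48 members were lower and 0 higher, with log2 differences from −0.83 to −2.24, where 5.59% of all gene models were lower, 2.87% higher and 8.45% either. This set held 14 of the 15. The rule favours genes with a small spread over these 6 libraries, so the 48 calls are not independent of how the members were chosen. Without both the I18 wingless male and the BK11 sexual female, all other libraries being fitted together, 30 were lower, where 7.73% of all gene models were lower and 5.43% higher.

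Scaling moved the wing difference as well. The sums of normalised counts were higher in all wingless than in all winged asexual female libraries. With every library scaled to the same total, the median log2 difference was 0.60 over all gene models and −0.37 over the members, and 3 members were lower and 1 higher, where 1.86% of all gene models were lower, 17.5% higher and 19.3% either. With trimmed mean (TMM) scaling the medians were 0.10 and −0.94, and 11 members were lower, where 5.63% of all gene models were lower and 6.06% higher. Under the deposited, the trimmed mean and the equal-total scaling alike, the median of the members lay below that of all gene models. The number of members that limma called lower fell to 6, 5 and 9 without the winged F1, I18 or BK11 library, where 3.62%, 3.67% and 7.93% of all gene models were lower. It fell to 4 and 5 without the wingless F1 or BK11 library, where 3.29% and 3.68% were lower. It was 26 and 23 without the F1 or BK11 sexual female, where 8.86% and 6.68% were lower, and 0, 4 and 0 without clone F1, I18 or BK11, where 0.527%, 2.58% and 1.33% were lower.

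The largest called difference belonged to ACYPI009889-RA. Winged asexual females had normalised counts of 445.6 in F1, 432.0 in I18 and 359.8 in BK11, and wingless ones had 2414, 1574 and 1368. Sexual females lay between 4.68 and 10.4, and males between 24.5 and 46.2. The winged and wingless asexual libraries did not overlap, with a log2 difference of −2.07 ± 0.40 (SE, limma adjusted p = 0.00587). The call was lost when any one clone was left out (adjusted p from 0.0717 to 0.122) and kept in the other alternatives.

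ACYPI082353-RA came next. Its winged asexual females had normalised counts of 252.5 in F1, 327.8 in I18 and 326.1 in BK11 against 1259, 1034 and 1313 in wingless ones, again without overlap. The log2 difference was −1.99 ± 0.59 (SE, limma adjusted p = 0.0448). Under 29 alternatives the adjusted p ran from 8.49e-08 to 0.209, and the call was lost in 17, among them those without any 1 of the 6 asexual female libraries or of the F1 and I18 winged and F1 and BK11 wingless male libraries.

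**Figure D3:**
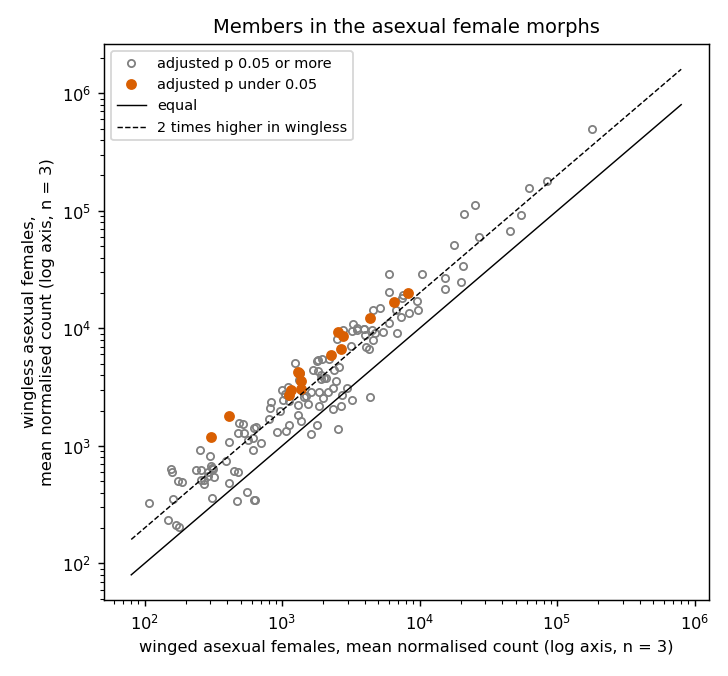
Mean normalised count of each member in winged (x axis) and wingless (y axis) asexual females, both on log axes, with n = 3 clones per morph. Most of the 150 points lie above the solid line of equality, 82 at or above the dashed line of 2 times, counts not made over all gene models. Filled points mark the 15 members with an adjusted p under 0.05.

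In males, the members stood at a few percent of their asexual female level in both morphs, and no difference between winged and wingless males passed the limma test. Limma called 0 members higher and 0 lower where 0.350% of all gene models were called, 0.172% as higher and 0.177% as lower. At an unadjusted limma p under 0.05, 3 were higher and 11 lower in winged males, where 7.67% of all gene models passed in either direction. EdgeR also called 0 where 0.0345% of all gene models were called, 0.0296% as higher and 0.00493% as lower. At an unadjusted edgeR p under 0.05, 3 were higher and 21 lower, where 10.3% of all gene models passed in either direction. DESeq2 called 0 higher and 3 lower, where 3.24% were called, 0.635% as higher and 2.61% as lower. At an unadjusted DESeq2 p under 0.05, 3 were higher and 25 lower, where 11.4% of all gene models passed. The smallest limma adjusted p was 0.197. Every member passed the filter of 10 through its asexual female libraries, where the rule asked for at least 100. In single male libraries, 10 to 23 of the members had 3 reads or fewer. For members so near 0 in males, the absence of a call is not informative. The median log2 difference, winged minus wingless, was −0.33 over the members and −0.03 over all gene models. Within clones it was 0.09 in F1, −0.73 in I18 and −0.29 in BK11, and without the I18 wingless male the median of the members was −0.02.

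The wing difference in males was then set against that in asexual females by testing the difference between them. It was positive, that is, less negative or more positive in males, for 105 of the 150 members, a count not made over all gene models. The log2(value + 1) scale understates changes near 0. For members near 0 in males, this difference can therefore largely repeat the wing difference in asexual females. The median difference was 0.71 over the members and −0.07 over all gene models. With every library scaled to the same total, these medians were 0.03 and −0.69. By limma, 4 members passed the test, all of them positive, where 1.87% of all gene models were called, 1.28% as positive and 0.591% as negative. At an unadjusted limma p under 0.05, 25 were positive and 1 negative, together 26 of 150 where 16.9% of all gene models passed. EdgeR and DESeq2 called 1 and 14 positive and 0 negative, where 0.453% and 4.43% of all gene models were positive, 0.438% and 4.65% negative and 0.892% and 9.08% either. At an unadjusted p under 0.05 from edgeR and DESeq2, 21 and 31 were positive and 2 each negative, where 18.4% and 20.6% of all gene models passed. All 4 were also among the 15 that were lower in winged asexual females. They were ACYPI003071-RA and ACYPI000594-RA, with the largest differences among the 4, and ACYPI53294-RA and ACYPI003976-RA, named after their values were seen because the count was small.

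ACYPI003071-RA had normalised counts of 2570.3 in F1, 2459 in I18 and 1801 in BK11 winged asexual females and of 5872, 5461 and 6318 in wingless ones. In males the winged libraries had 32.1, 69.2 and 55.7 and the wingless ones 27.3, 17.0 and 35.8, so that the winged library was higher in each clone although the groups overlapped. The difference of the wing effects was 2.32 ± 0.55 on the log2 scale (SE, limma adjusted p = 0.0497). The adjusted p was 0.0518 when the clones entered as a replicate block. ACYPI000594-RA had 1344, 1498 and 1061 in winged and 4330.1, 3846 and 4680 in wingless asexual females. It had 244.9, 172.9 and 125.0 in winged and 122.0, 168.8 and 132.9 in wingless males, where the groups overlapped. Its difference was 2.04 ± 0.46 (SE, limma adjusted p = 0.0435).

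ACYPI53294-RA stood at normalised counts of 1836, 2455 and 3359 in winged and 9811, 6657 and 11490.2 in wingless asexual females, and between 120.7 and 202.2 in the 6 male libraries. The difference was 2.04 ± 0.46 (SE, limma adjusted p = 0.0439). ACYPI003976-RA kept the highest share in males of these 4, with 1757 to 2076 in winged and 1274 to 1703 in wingless males, which did not overlap. Its asexual females had 7554 to 8720.2 when winged and 14003 to 23523 when wingless, and the difference was 1.58 ± 0.32 (SE, limma adjusted p = 0.0303). These calls were lost in 14 to 23 of 29 alternatives each. With every library scaled to the same total no member was called, where 0.330% of all gene models were positive, 4.81% negative and 5.14% either. The same held without the F1 or I18 winged or the F1 or BK11 wingless asexual female, without any winged male, without the F1 wingless male and without any 1 clone, where at most 0.409% of all gene models were positive. There were 2 calls without the BK11 winged or I18 wingless asexual female, the I18 sexual female or the I18 wingless male, where 2.33%, 1.18%, 0.901% and 0.985% were positive. Without the F1 sexual female there were 7, where 2.45% of all gene models were positive.

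Sexual females and males shared their day length and temperature, and members, like all gene models, were more often lower than higher in sexual females. By limma, 58 members were lower and 15 higher in sexual females than in males. Together these were 48.7% of the members, where 65.7% of all gene models were called, 36.8% as lower and 28.9% as higher. In this fit the share of members called lower was close to that of all gene models, and the share called higher was smaller. The median log2 difference was −0.89 over the members and −0.57 over all gene models. Sexual females were lower than males in all 3 clones for 51 of the 58, and higher in all 3 for 14 of the 15. With only the groups compared, 43 members were lower and 10 higher, where 35.9% and 28.6% of all gene models were. EdgeR called 47 lower and 23 higher, where 35.5% and 28.5% were. Of the members, 4 to 29 had 3 reads or fewer in single sexual female libraries. Recovered read totals were higher in every sexual female library than in every male one. Sexual females were up to 6 days old, and this age range cannot be told apart from the morph.

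For the 58 members with lower values in sexual females, the median was 6.02% of the asexual female level in males and 1.13% in sexual females. The 15 that were higher stood at a median of 0.953% in males and 3.15% in sexual females. The 77 members without a call stood at medians of 1.30% and 1.45%. The percentages of the members were ordered alike among male libraries, with rank correlations across the 150 members from 0.83 to 0.89 for pairs of the 5 libraries other than the I18 wingless male and from 0.54 to 0.65 for pairs with it. They ran from 0.53 to 0.70 among sexual females and from 0.19 to 0.57 between a sexual female and a male. These correlations are across genes, which are not independent replicates, and all percentages share the asexual female mean as their denominator.

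**Figure D4:**
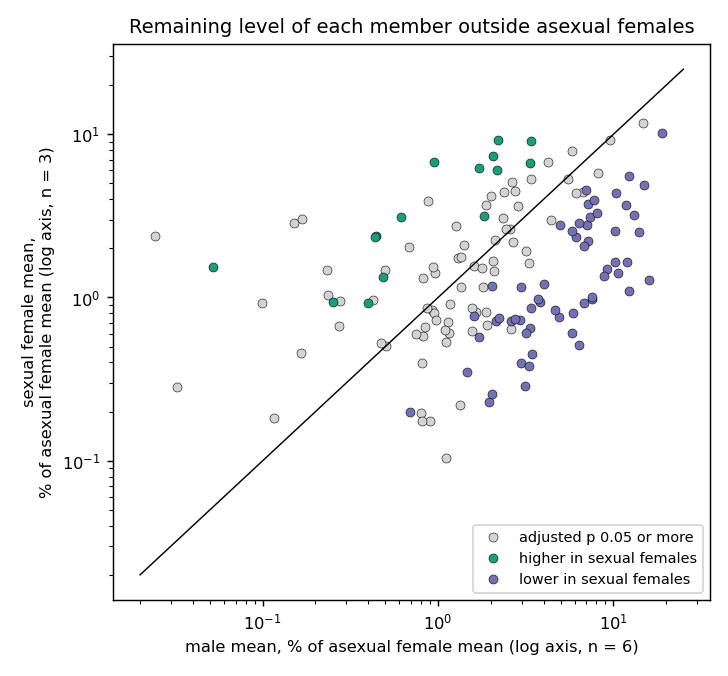
Level in sexual females (y axis, n = 3) and males (x axis, n = 6) for each member, as a percentage of its asexual female mean on log axes, with the line of equality. The 58 members lower in sexual females lie to the lower right, at a median of 6.02% in males, and the 15 higher ones lie above the line, at a median of 3.15% in sexual females.

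ACYPI000357-RA and ACYPI008295-RA were the members with the largest deficit in sexual females. For ACYPI000357-RA, sexual females had normalised counts of 4.68 in F1, 16.7 in I18 and 35.2 in BK11, against 167.1 to 287.3 in winged and 181.7 to 307.5 in wingless males. Asexual females had 1431 to 2725 when winged and 3157 to 6719 when wingless. Every sexual female lay below every male (log2 difference −3.90 ± 0.49, SE, limma adjusted p = 1.04e-05).

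For ACYPI008295-RA, sexual females had normalised counts of 30.0 in F1, 19.9 in I18 and 60.5 in BK11, and the 6 male libraries lay between 365.1 and 529.3. Asexual females had 1958 to 2147 when winged and 2909 to 4213 when wingless. The gap between asexual females and the rest was required by the rule. Every sexual female lay below every male, a contrast the rule did not use. The log2 difference, sexual females minus males, was −3.75 ± 0.29 (SE, limma adjusted p = 3.83e-07).

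ACYPI010033-RA and ACYPI067812-RA were the members with the largest excess in sexual females. For ACYPI010033-RA, sexual females had normalised counts of 78.7 in F1, 212.7 in I18 and 326.1 in BK11. Males had 1.28, 3.99 and 1.36 when winged and 5.19, 27.4 and 2.31 when wingless. Asexual females had 3823 to 13495 when winged and 12749 to 22510.3 when wingless, so the 3 classes were separate, with the I18 library highest in wingless males (5.15 ± 0.65, SE, limma adjusted p = 1.23e-05).

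For ACYPI067812-RA, sexual females had normalised counts of 197.6 in F1, 291.5 in I18 and 153.6 in BK11, and winged males had 14.1, 9.31 and 4.08. Wingless males had 10.4 in F1, 142.4 in I18 and 0 in BK11, so that the I18 library came close to the sexual females while the others did not. Asexual females had 1063 to 1487 when winged and 2151 to 9069 when wingless. The log2 difference between sexual females and males was 4.32 ± 1.07 (SE, limma adjusted p = 0.00299), and 5.43 without the I18 wingless male and the BK11 sexual female. Without those 2 libraries 70 members were lower and 13 higher in sexual females, where 35.3% of all gene models were lower and 27.7% higher. Lower calls fell to 36 without clone F1 and to 36 without clone I18, where 26.0% and 31.9% of all gene models were lower. Higher calls fell to 6 without clone BK11, where 25.9% were higher.

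**Figure D5:**
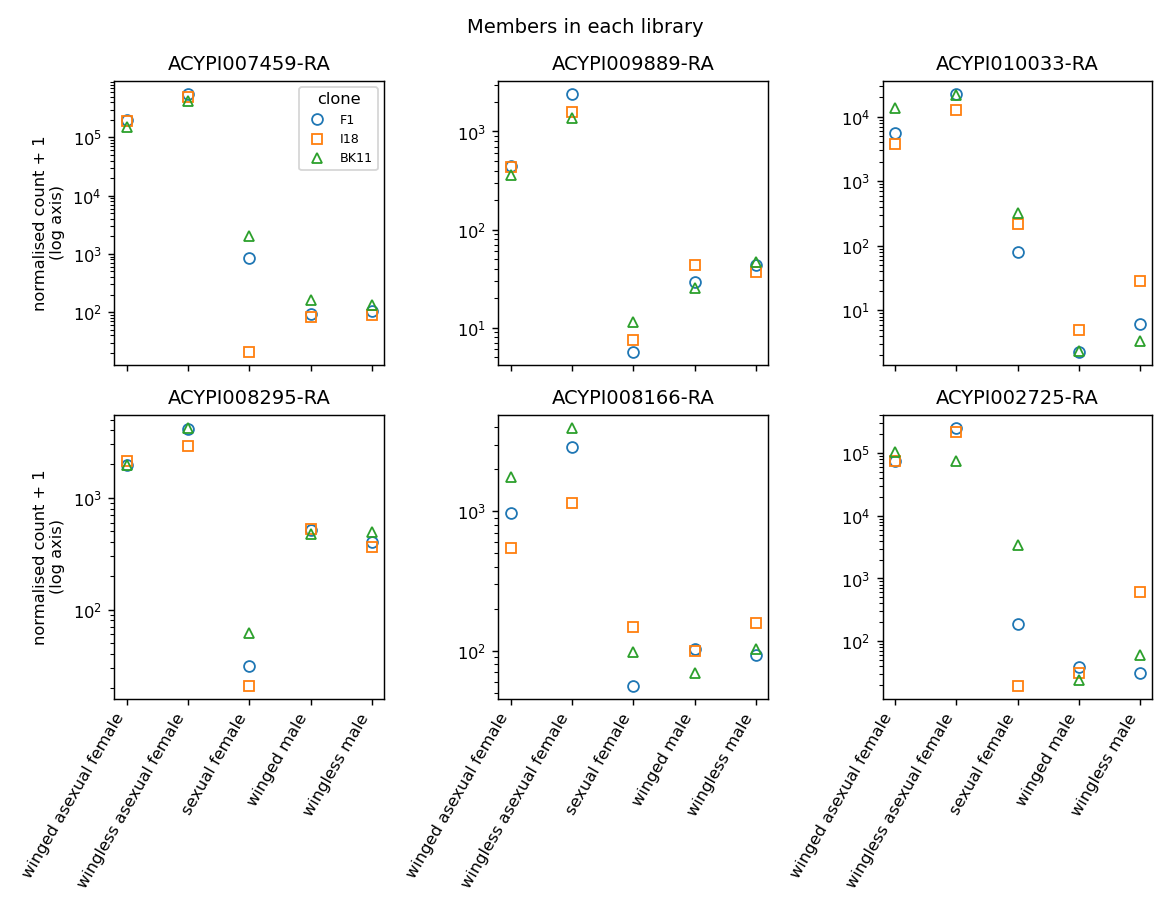
Normalised count plus 1 (log axis) of 6 members in every library, by morph and with a marker for each clone. ACYPI007459-RA has the largest ratio, ACYPI009889-RA has the largest called difference between winged and wingless asexual females, ACYPI010033-RA and ACYPI008295-RA are higher and lower in sexual females than in males, ACYPI008166-RA differs among clones and ACYPI002725-RA has high values in the BK11 sexual female and I18 wingless male.

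Few members differed among clones within asexual females by the test across all genes. The range of the 3 clone means on the log2 scale had a median of 0.50 and reached 2.05, and it was at least 1 for 24 members. F1 was the highest clone for 72 members and I18 the lowest for 84. These counts were not made over all gene models, and the rule favours genes with a small spread over the asexual female libraries. In the limma F test of clone, with morph in the model and the 6 asexual female libraries, 3 members passed, or 2% of them, where 4.85% of 15898 gene models were called. In all 3 the order was I18 lowest, F1 between and BK11 highest, in both morphs.

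ACYPI008166-RA had normalised counts of 543.8 in I18, 973.4 in F1 and 1770 in BK11 winged asexual females and of 1149, 2882 and 3971 in wingless ones (limma adjusted p = 0.0368). Its values elsewhere lay between 55.3 and 157.5. ACYPI56505-RA had 129.3, 309.7 and 434.3 in winged and 218.3, 656.8 and 941.0 in wingless asexual females in the same order (limma adjusted p = 0.0417). ACYPI007864-RA, named because the count was small, had 101.8, 226.0 and 444.6 in winged and 232.2, 720.2 and 925.7 in wingless ones (limma adjusted p = 0.0434).

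With 2 residual degrees of freedom this test rested on few libraries. No member passed without the F1 or I18 winged asexual female library, where 0.616% and 3.96% of all gene models did. The same held without the F1 or I18 wingless one, where 0.428% and 4.40% did, and without clone F1 or I18, where 0.472% and 4.66% did. Without the BK11 winged or wingless library 16 and 29 passed, where 9.08% and 23.0% of all gene models did. Without clone BK11 11 passed, where 6.97% did.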

How the data were processed

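RNA sequencing of whole bodies was analysed in 15 libraries, 5 morphs in each of 3 clones, on an Illumina instrument per the labels. The deposited signal has, from its values, the form of a read count per gene model divided by 1 factor per library, and DESeq2 is named, without a version, in the submitters' processing notes. The sources used here do not name the aligner, counting tool, strand setting, build or annotation, and reads shared by near-identical gene models could not be examined. All deposited values were whole multiples of the smallest positive value of their library within 0.001 of a read (100% in each library), so whole reads were recovered for edgeR 4.0.16 and DESeq2 1.42.0.

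The main tests used limma 3.58.1 in R 4.3.3, with a mean-dependent prior variance, on log2(value + 1). Gene models at 10 or more in at least 3 libraries were tested, 20301 in all, as 5 group means (10 residual degrees of freedom). For the clone F test the same filter was applied to the 6 asexual female libraries, which left 15898. The threshold was a Benjamini-Hochberg adjusted p of 0.05 over all gene models tested. Fold changes on this scale understate the change of genes near 0. Each clone gave 1 library per morph, which the labels treat as biological replicates, and p-values measure the spread among clones and preparations together. Clone pairs the samples: deviations from morph means correlated from 0.135 to 0.642 between libraries of a clone.

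In each comparison the 2 members in each direction with the largest called fold change and the same direction in every clone were named (for clones, the 2 smallest p). The 2 largest ratios, the 2 highest counts (unscaled for length, so not an order of levels), the members just inside and outside the limit and members in the gene table were named as descriptions. The members and lists were chosen with earlier results of these data known. Of the 20657 identifiers, 61 were in the gene table, and none of the members could be looked up by product name. Alternatives were other pseudocounts, filters, scalings, tools, a clone block, fits restricted to the groups compared, and libraries or clones left out; equal-total scaling and leaving out the I18 wingless male with the BK11 sexual female were chosen after seeing the data. The code was tested on simulated data. Limits from a count of 0 cover counting error only.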

Additional observations from a re-analysis of the deposited data

Results flagged for a closer look

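The I18 wingless male stood apart from the 5 other male libraries in the share of normalised counts held by the members, at 0.106%, and in the median level of the members, at 4.45% of the asexual female mean. The gap to the nearest library was larger than Dixon's 95% limit for 6 samples, which chance passes in about 1 of 20 groups, and the 6 libraries join 2 morphs. The same library stood apart for ACYPI010033-RA, at a normalised count of 27.4, and for ACYPI067812-RA, at 142. Over all members a male library stood apart for 43 of the 150, and it was the I18 wingless male for 40. The share over all gene models was not computed, so these counts do not show whether this is particular to the members.

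The wing difference was not the same in males and asexual females, by the limma test of the difference itself, for ACYPI003071-RA at 2.32, ACYPI000594-RA at 2.04, ACYPI53294-RA at 2.04 and ACYPI003976-RA at 1.58 on the log2 scale. In all 4 the wingless asexual females were the higher female morph, and the male wing difference missed the threshold. Each of the 4 calls was lost in 14 to 23 of 29 alternatives, among them the scaling of every library to the same total.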

How the results depend on the processing

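Members lower in winged asexual females numbered 15, and 27 with a pseudocount of 8 (7.28% of all gene models), 48 with only the groups compared, 37 with DESeq2, 3 (and 1 higher) with equal totals and 30 without the I18 wingless male and BK11 sexual female, the last 2 chosen after seeing the data. Leaving out 1 library or clone gave 0 to 26. DESeq2 called 3 members lower in winged males. Higher calls in sexual females numbered 15, and 23 with edgeR and 24 with DESeq2, where 28.5% and 30.5% of all gene models were higher (6 to 21 without 1 library or clone, and 36 to 68 lower ones). Positive differences of wing effects numbered 4, and 2 with trimmed mean scaling (1.03%), 0 with equal totals, 10 with only the groups compared (1.70% of all gene models), 1 with edgeR, 14 with DESeq2 and 2 (0.926%) without the I18 wingless male and BK11 sexual female (0 to 7 without 1 library or clone). Clone calls numbered 3 (24 of 150 at an unadjusted limma p under 0.05, against 25.7% of all gene models). They were 1 with a pseudocount of 8 (3.59% of all), 0 with a filter of 50 (2.83%), 1 with all 15 libraries (7.05%), 1 with edgeR (3.27%) and 13 with DESeq2 (18.4%), with a range of 0 to 29 without 1 library or clone. Membership kept 95 of 150 without those 2 libraries, 89 to 150 without 1 library or clone, and 113 to 147 under other constants, floors, scaling or group means. The cause was not tested for any of these shifts.

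With clone as a replicate block, 17 members were lower in winged asexual females (7.97% of all gene models), and 55 were lower (39.9%) and 18 higher (30.2%) in sexual females. Positive differences of wing effects numbered 3 (1.69%), and beside the call of ACYPI003071-RA no call of a named member changed. No named difference changed direction in any alternative.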
